A study of Mus musculus with 15 samples.

Results

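The Hes and Hey genes and Nrarp, a list that holds the best known transcriptional targets of the Notch receptors, were followed through 15 mouse brain tumour libraries. The 8 genes (Hes1, Hes5, Hes6, Hes7, Hey1, Hey2, Heyl and Nrarp) were found by matching the Ensembl identifiers of the deposited gene tables to mouse symbols, and all 8 were present among the 54232 genes of each table. RNA came from tumours of the frontal cortex of C57BL/6 mice, raised by injecting DF-1 chicken cells that carry RCAS viruses into mice in which the Nestin promoter drives Tv-a, the receptor these viruses need. All tumours therefore share RCAS-Cre acting on floxed Trp53, the growth factor PDGFA from RCAS-PDGFA, and a histone H3.3 fused to GFP. The 4 groups differ in the histone, wild type (H3.3WT) or with arginine in place of glycine in its tail (H3.3G34R), and in Atrx, the gene of a remodeller that places H3.3 in chromatin. They were Atrx floxed with H3.3G34R (ATRXfl_G34R, 4 libraries), Atrx floxed with H3.3WT (ATRXfl_WT, 4), Atrx intact with H3.3G34R (p53_G34R, 3) and Atrx intact with H3.3WT (p53_WT, 4). Tumours were taken at a functional end point, so age was not fixed, and neither age nor sex is given. The labels do not say that each library is a separate mouse, so the p-values measure the spread between libraries. The first code of the title is shared by ATRXfl_G34R replicates 1 and 4, by p53_G34R replicates 2 and 3 and by p53_WT replicates 3 and 4. The labels do not say whether such libraries come from the same mouse or batch.

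Notch receptors are cut when a ligand on a neighbouring cell binds them, and the freed intracellular domain joins the DNA-binding protein RBPJ to switch on Hes and Hey genes. Most Hes and Hey proteins are basic helix-loop-helix repressors that silence proneural genes and thereby keep neural progenitors undifferentiated, and Hey factors also act in blood vessels. Nrarp is a small ankyrin-repeat protein that Notch induces and that restrains the pathway in return.

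RBPJ is known to bind GTGGGAA and close variants. The 250 bases before RefSeq transcript starts of the genes were therefore searched for GTGGGAA and, for the other strand, TTCCCAC. The windows came from RefSeq on GRCm38.p6, the assembly called mm10, and 5 of the 8 genes matched an entry. Hes1, Hey1 and Heyl had none. The windows shown are those of Hes5 and Nrarp, whose levels went together across the tumours, and of Hey2. Capitals mark the motif, each strand reads 5′ to 3′ in the direction of the gene, and positions count back from the base before the RefSeq start. For Hes7, Hey2 and a window of Hes6 that start lies inside the gene positions given below, which come from another annotation.
Hes5, chr4:154960673-154960922, plus strand: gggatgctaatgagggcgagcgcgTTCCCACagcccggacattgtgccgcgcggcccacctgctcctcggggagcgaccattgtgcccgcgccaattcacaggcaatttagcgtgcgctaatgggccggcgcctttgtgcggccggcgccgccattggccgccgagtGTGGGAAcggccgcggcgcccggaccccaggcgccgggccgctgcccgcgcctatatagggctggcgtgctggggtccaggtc
Nrarp, chr2:25180508-25180757, plus strand: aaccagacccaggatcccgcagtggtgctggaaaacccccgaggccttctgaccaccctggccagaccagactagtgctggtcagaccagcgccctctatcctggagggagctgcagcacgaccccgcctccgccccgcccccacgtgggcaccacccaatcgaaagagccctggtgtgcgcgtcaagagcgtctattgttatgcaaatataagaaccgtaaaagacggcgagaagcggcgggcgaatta
Hey2, chr10:30842784-30843033, minus strand: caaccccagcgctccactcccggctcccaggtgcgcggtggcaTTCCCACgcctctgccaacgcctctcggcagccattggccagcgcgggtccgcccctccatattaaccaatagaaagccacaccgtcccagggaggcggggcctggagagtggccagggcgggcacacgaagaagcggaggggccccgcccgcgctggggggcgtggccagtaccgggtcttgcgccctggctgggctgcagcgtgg
The Hes5 window held 2 matches, TTCCCAC at -226 to -220 and GTGGGAA at -83 to -77. The Hey2 window held 1 match, TTCCCAC at -207 to -201, and the Hes7 window (chr11:69120203-69120452, plus strand) held 1 at -180 to -174. No match was found in the Nrarp window or in either of the 2 windows of Hes6. Of 32851 such windows in the table, 5.42% held at least 1 match and 0.161% held 2. The shorter core TGGGAA, which lies inside every full match, was in 21.6% of windows. A match here is a description of the letters and not a measured binding site.

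Between 22807315 and 35679129 reads fell in genes per library. Levels below are normalized counts, that is reads divided by a size factor, on 1 scale for all 15 libraries. Atrx, the targeted gene, was at 1346 to 3124 normalized counts in the 8 floxed libraries and at 5143 to 8540 in the 7 intact ones, so the ranges did not overlap. Tumour libraries carried high levels of oligodendrocyte progenitor markers: the sum over the 8 markers (Pdgfra, Olig1, Olig2, Sox10, Cspg4, Gpr17, Vcan and Lhfpl3) was 182175 to 503962 in 14 libraries and 27715 in p53_WT replicate 3. That library also held 214281 normalized counts of 8 neuron markers, against 161 to 14756 in the others, where the highest was ATRXfl_G34R replicate 3. In ATRXfl_WT replicate 1 the sums of 8 endothelial and of 8 mural markers were 80720 and 105767, against at most 19931 and 22146 elsewhere. No marker of these lists was at 0 in any library. Most differences and correlations of the 8 target genes that rest on these 3 libraries are given with and without them. The medians of Notch receptors and the likeness to single genes given last are not.

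Per kilobase of exon in the GENCODE vM21 annotation, Hes1 and Hes6 stood highest and Hes7 lowest. The mean over 15 libraries was 540 normalized counts per kilobase for Hes1 and 518 for Hes6. Hey1 followed at 387, Hes5 at 251, Hey2 at 179, Nrarp at 153 and Heyl at 126, and Hes7 was at 17.2. Hes1 or Hes6 ranked first in 13 of 15 libraries, Hey1 in 1 and Heyl in 1, and Hes7 ranked last in 13. The genes also differed in how much they varied between tumours: the coefficient of variation was 15.02% for Hes6, 32.6% for Hey1 and 40.1% for Hes1, and 175% for Heyl. The highest library exceeded the lowest 1.89 times for Hes6, 3.45 times for Hey1 and 3.70 times for Hes1. For Nrarp, Hes5, Hey2, Hes7 and Heyl that ratio ran from 9.03 to 30.8.

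**Figure D1:**
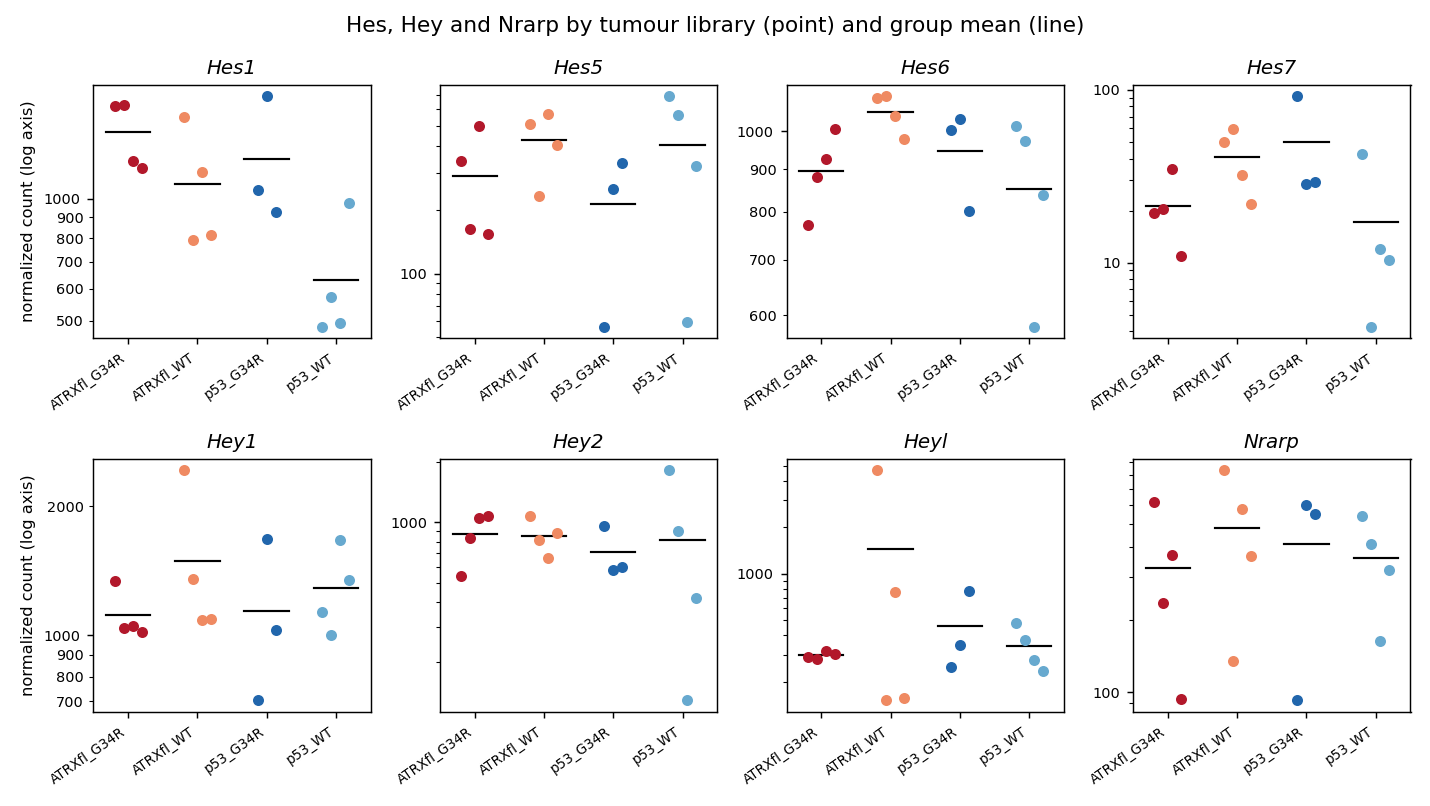
Normalized counts (log axis) of the 8 genes in each of the 15 tumour libraries, as points, with the mean of each group as a line. Hes1 is lowest in p53_WT, Hes6 spans a narrow range in every group, and 1 ATRXfl_WT library holds 4681 normalized counts of Heyl against 764 in the next of its group.

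Hes1 (ENSMUSG00000022528; mm10 chromosome 16, 30064384 to 30067796), the most widely used Notch effector, was the only 1 of the 8 with a pair of groups that did not overlap. In replicate order it was at 1697, 1708, 1239 and 1192 normalized counts in ATRXfl_G34R and at 1594, 791, 1166 and 813 in ATRXfl_WT. With Atrx intact it was at 1049.6, 1791 and 927 in p53_G34R and at 484, 574, 493 and 979 in p53_WT. The means in that order were 1459 ± 282 (SD, n = 4), 1091 ± 377 (SD, n = 4), 1256 ± 467 (SD, n = 3) and 632 ± 234 (SD, n = 4). Every ATRXfl_G34R library lay above every p53_WT library, while the other pairs of groups overlapped. Ordered by mean, the groups ran ATRXfl_G34R, p53_G34R, ATRXfl_WT and p53_WT, and of the neighbours only the last pair differed by more than the larger of their SDs.

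Tumours with both changes (ATRXfl_G34R) against tumours with neither (p53_WT) gave the largest Hes1 difference of the pairs, 1.25 on the log2 scale (SE 0.28, 95% interval 0.61 to 1.89), a 2.38-fold higher level. In limma, the linear model fitted to all genes of the table, the unadjusted p was 0.00163 and the adjusted p was 0.887, so Hes1 was not called. Groups without overlap and higher in the test group were also found for 1.57% of all genes tested. Over the alternatives the difference stayed between 1.15 and 1.49. DESeq2 on the reads recovered from the deposited values passed it (log2 1.21, adjusted p = 0.0448, where DESeq2 called 0.505% of genes), while edgeR's quasi-likelihood test did not (adjusted p = 0.890). The authors' deposited table gives a log2 change of 1.21 (SE 0.35) and an adjusted p of 0.0857. Without ATRXfl_G34R replicate 3 and p53_WT replicate 3, the libraries rich in cortex transcripts, the difference was 1.22 (limma, adjusted p = 0.397).

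Each single change went with a smaller Hes1 difference in the same direction. H3.3G34R against H3.3WT gave 0.47 (SE 0.27) with Atrx floxed and 0.99 (SE 0.36) with Atrx intact. The former was 0.67 without ATRXfl_WT replicate 1 (limma unadjusted p = 0.0217, adjusted p = 0.980). The latter was 0.89 without p53_WT replicate 3 (limma unadjusted p = 0.0476). Atrx floxed against intact gave 0.25 (SE 0.28) with H3.3G34R and 0.78 (SE 0.34) with H3.3WT. Over all 15 libraries the histone difference was 0.71 (SE 0.22) with an unadjusted p of 0.00661, and the Atrx difference was 0.54 (SE 0.22) with an unadjusted p of 0.0285. After adjustment over all genes neither passed limma (0.999 and 0.851). The Atrx difference was 0.42 without ATRXfl_WT replicate 1 and 0.47 without p53_WT replicate 3 (limma unadjusted p = 0.0669 and 0.0561). With H3.3WT alone it was 0.58 and 0.68 without the same libraries in turn (limma unadjusted p = 0.125 and 0.0877). The histone difference over both Atrx states was 0.83 and 0.65 without them in turn (limma unadjusted p = 0.00155 and 0.0122). The test of whether one change altered the size of the other, the interaction, gave -0.53 (SE 0.45, unadjusted p = 0.254). Among the 3 tumours of p53_G34R, replicate 2 was at 1791, and without it the Atrx difference with H3.3G34R was 0.55. That difference was -0.02 with Xist as a covariate. Xist, whose level differs by sex, was at 6.80, 6.10, 14623 and 27.7 normalized counts in ATRXfl_G34R and at 21879, 6.92 and 42096 in p53_G34R. In ATRXfl_WT it was at 22.5, 10675, 9.58 and 31168, and in p53_WT at 36221, 1.06, 16835 and 30455. With that covariate Hes1 was at 1.21 for both changes against neither (limma unadjusted p = 0.00627), and the part of sex was not tested. The endothelial marker list was nearest to Hes1 of the 8 lists (Pearson r 0.44 and Spearman rho 0.50 over 15 libraries, adjusted p = 0.374 and 0.615), and r was 0.27 without ATRXfl_WT replicate 1 and p53_WT replicate 2. Its sum over 8 of 8 markers was 11091 to 19206 normalized counts in ATRXfl_G34R (median 14192) and 7511 to 19931 in p53_WT (median 8428), where 19931 was the cortex-rich replicate 3 and the next highest library was at 9085. Between tumours with both changes and with neither, 8 of 8 endothelial markers were positive with a median log2 difference of 0.50, and the median was 0.96 without the 2 cortex-rich libraries. None of these markers was called by limma, and their part in the Hes1 difference was not tested.

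Hes5 (ENSMUSG00000048001; mm10 chromosome 4, 154960923 to 154962371), the Notch effector most restricted to neural progenitors, varied 12.2 times between libraries without following the groups. It was at 341, 163, 499 and 153 normalized counts in ATRXfl_G34R and at 506, 232, 567 and 403 in ATRXfl_WT. It was at 56.1, 249.99 and 334 in p53_G34R and at 687, 558, 59.0 and 323 in p53_WT. The lowest values belonged to p53_G34R replicate 1 and p53_WT replicate 3, and all groups overlapped. H3.3G34R went with -0.66 (SE 0.45) where Atrx was floxed and with -0.80 (SE 0.97) where it was intact, the latter -1.57 without p53_WT replicate 3. Over both Atrx states the histone difference was -0.73 (SE 0.52, limma adjusted p = 0.999). Without the 2 cortex-rich libraries it was -1.26 (unadjusted p = 0.00901, limma adjusted p = 0.999), and the difference between both changes and neither went from -0.19 to -1.28 (unadjusted p = 0.0221, limma adjusted p = 0.525). Under the same omission the Atrx difference went from 0.53 to -0.03. In bulk tumour RNA, fewer cells of a type and less RNA per cell cannot be told apart.

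Hes6 (ENSMUSG00000067071; mm10 chromosome 1, 91411483 to 91414038) differs in role from Hes1 and Hes5: it counters Hes1 and is expressed in cells that begin to differentiate. The counts and medians of the 8 listed target genes include Hes6, although its response to Notch may differ from that of the others. It was the steadiest of the 8 genes, with 771, 880.1, 924 and 1004 normalized counts in ATRXfl_G34R and 1097, 1101, 1042 and 979 in ATRXfl_WT. In p53_G34R it was at 1004, 1035 and 800.3 and in p53_WT at 1013, 973, 581 and 838. The lowest value, 581, was that of p53_WT replicate 3. The widest 95% interval for a pair of groups ran from -0.47 to 0.83 (H3.3G34R against H3.3WT, Atrx intact). All 5 pair differences lay between -0.24 and 0.33 on the log2 scale, and the highest, for Atrx with H3.3WT, was 0.16 without p53_WT replicate 3. Both changes against neither gave 0.10 (SE 0.24), and -0.09 without the 2 cortex-rich libraries.

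Hes7 (ENSMUSG00000023781; mm10 chromosome 11, 69120404 to 69124055), the oscillating gene of the somite clock, was close to the limit of what these libraries measure, with 4 to 88 reads per library. It was at 19.4, 20.3, 34.6 and 10.9 normalized counts in ATRXfl_G34R and at 49.9, 59.6, 32.2 and 21.8 in ATRXfl_WT. It was at 91.5, 28.5 and 29.3 in p53_G34R and at 42.3, 4.25, 11.97 and 10.4 in p53_WT. The highest and lowest libraries were both from tumours with Atrx intact. H3.3G34R went with -0.91 (SE 0.52) where Atrx was floxed and with 1.69 (SE 0.83) where it was intact. The interaction was -2.60 (SE 0.95, 95% interval -4.63 to -0.58) with an unadjusted p of 0.0153 and a limma adjusted p of 0.99959, so it was not called. ATRXfl_WT lay above ATRXfl_G34R by more than the larger SD of the 2, although their ranges overlapped.

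Hey1 (ENSMUSG00000040289; mm10 chromosome 3, 8663359 to 8667256), a repressor expressed in neural progenitors and in endothelium, had the highest mean count of the 8 before length was considered, 1265. It was at 1339.9, 1042, 1053 and 1019 normalized counts in ATRXfl_G34R and at 2430.4, 1353, 1087 and 1090.4 in ATRXfl_WT. With Atrx intact it was at 704, 1678 and 1029 in p53_G34R and at 1132, 1002, 1665 and 1347 in p53_WT. Its highest library was ATRXfl_WT replicate 1, the one with the high vessel markers, and all groups overlapped. Pair differences ran from -0.34 (SE 0.27) for H3.3G34R with Atrx floxed, which was -0.08 without that library, to 0.15 (SE 0.31) for Atrx with H3.3WT, which was -0.12 without it. The order of the means, ATRXfl_WT, p53_WT, p53_G34R and ATRXfl_G34R, had no step larger than the SD of the groups beside it.

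Hey2 (ENSMUSG00000019789; mm10 chromosome 10, 30832359 to 30842801), which acts in arteries and in progenitors, had nearly equal means in the 4 groups, 871 ± 246, 856 ± 170, 711 ± 214 and 817 ± 738 (SD, n = 4, 4, 3 and 4, in the order ATRXfl_G34R, ATRXfl_WT, p53_G34R and p53_WT). The last SD is that of 1815, 906, 129 and 417 normalized counts, which hold both the highest and the lowest of the 15 values. The other groups were at 539, 830.3, 1045 and 1069, at 1070.5, 811, 660.4 and 883 and at 957, 574 and 601. The lowest value, 129, was again that of p53_WT replicate 3. Atrx floxed against intact with H3.3WT gave 0.62 (SE 0.70), and -0.07 without p53_WT replicate 3. H3.3G34R against H3.3WT with Atrx intact gave 0.34, and -0.35 without the same library. Both changes against neither gave 0.63 (SE 0.72), and -0.17 without the 2 cortex-rich libraries.

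Heyl (ENSMUSG00000032744; mm10 chromosome 4, 123233556 to 123249875), a Hey relative known from the smooth muscle and pericytes of vessels, had a spread that lay mostly in 1 library: 14 libraries were at 152 to 779 normalized counts and 1 was far above. In ATRXfl_WT it was at 4681, 152, 764 and 157 normalized counts, and replicate 1 was the highest of all 15 libraries. In ATRXfl_G34R it was at 289.5, 282, 315 and 301, 297 ± 14.6 (SD, n = 4), the smallest SD relative to its mean in any group of the 8 genes. It was at 251, 345 and 779 in p53_G34R and at 485, 371, 277 and 236 in p53_WT. H3.3G34R against H3.3WT with Atrx floxed gave -0.86 (SE 0.94) in limma, -2.26 in edgeR and -2.27 in DESeq2, and 0.17 in limma without ATRXfl_WT replicate 1. The authors' deposited table gives -2.27 (SE 0.86) with an adjusted p of 0.675. Atrx floxed against intact with H3.3WT gave 0.71 (SE 0.99) in limma and 2.06 in edgeR, and -0.33 in limma without the same library. That tumour also held 60010 normalized counts of the pericyte gene Rgs5, where the next highest library held 13367, and 12037 of the endothelial gene Pecam1, where the next highest held 3327. The part of vessel RNA in the Heyl difference was not tested beyond leaving that library out.

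Nrarp (ENSMUSG00000078202; mm10 chromosome 2, 25180758 to 25183339), the feedback inhibitor, ranged from 92.5 to 835 normalized counts. It was at 619, 235, 370.3 and 94.0 in ATRXfl_G34R and at 835, 136, 576 and 369 in ATRXfl_WT. It was at 92.5, 601 and 548 in p53_G34R and at 540.1, 414, 163 and 323 in p53_WT. Each group held libraries more than 3-fold apart, and all groups overlapped. Pair differences lay between -0.55 (SE 0.67) for H3.3G34R with Atrx floxed and 0.25 (SE 0.60) for Atrx with H3.3WT. Without ATRXfl_WT replicate 1 these were -0.20 and -0.11. The sign turned with single libraries: H3.3G34R against H3.3WT with Atrx intact was -0.07 (SE 0.74), and 0.81 without p53_G34R replicate 1. Atrx floxed against intact with H3.3G34R was -0.23 (SE 0.81), and -1.11 without the same library.

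By group mean, ATRXfl_WT came first for Hes5, Hes6, Hey1, Heyl and Nrarp, ATRXfl_G34R for Hes1 and Hey2, and p53_G34R for Hes7. The lowest mean was that of p53_WT for Hes1, Hes6 and Hes7, of ATRXfl_G34R for Hey1, Heyl and Nrarp, and of p53_G34R for Hes5 and Hey2. Of the 24 steps between neighbouring groups, those named for Hes1 and Hes7 exceeded the larger SD of the neighbours, and the ranges overlapped at every step.

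Compared pair by pair, limma called none of the 8 genes in any of the 5 pairs of groups. Notch activation is among the outcomes that the study's title names for H3.3G34R with Atrx loss. Limma called at most 0.0335% of all genes in any of these pairs, so the lack of a call for 8 genes does not decide that outcome. Log2 differences were fitted on the table of each pair, adjusted over all its genes, and all 8 genes passed the filter on low values in every fit. With Atrx floxed, 0 of 8 were called for H3.3G34R against H3.3WT (limma called 0% of all genes), 2 of 8 were positive and the median difference was -0.45 (3 of 8 and -0.14 without ATRXfl_WT replicate 1). None of the 8 was at an unadjusted p under 0.05 there, against 2.79% of all genes. Without ATRXfl_WT replicate 1 Hes1 was at a limma unadjusted p of 0.0217, where 594 of 17421 genes were under 0.05. With Atrx intact 0 of 8 were called for the same contrast (0% of all genes), with 5 positive, a median of 0.24 and 1 of 8 at an unadjusted p under 0.05 (1.47% of all genes). Without p53_WT replicate 3, 4 were positive with a median of -0.06. For Atrx floxed against intact 0 of 8 were called with H3.3G34R (0.0229% of all genes), with 4 positive, a median of -0.02 and 0 of 8 at an unadjusted p under 0.05 (3.39%). With H3.3WT 0 of 8 were called (0.0335%), with 8 of 8 positive, a median of 0.54 and 1 of 8 at an unadjusted p under 0.05 (3.76%). Over all genes of that fit, 49.5% were positive and the median was -0.01. The 8 of 8 became 5 of 8 without p53_WT replicate 3 (median 0.22), where Hes5 was at -0.31, Hey2 at -0.07 and Nrarp at -0.09. It also became 5 of 8 without ATRXfl_WT replicate 1 (median 0.33), where Hey1 was at -0.12, Heyl at -0.33 and Nrarp at -0.11. Vessel markers had the same direction: 8 of 8 endothelial markers (median 0.76) and 7 of 8 mural markers (median 0.88) were positive, and 5 of 8 of each (medians 0.03 and 0.17) without ATRXfl_WT replicate 1. Their part in it was not tested. For both changes against neither 0 of 8 were called (0.0227%), with 4 positive, a median of -0.02 and 1 of 8 at an unadjusted p under 0.05 (4.37%), and 2 were positive without the 2 cortex-rich libraries. The gene at an unadjusted p under 0.05 was Hes1 each time. These comparisons share libraries, so their values are not independent of each other.

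By edgeR 0 of 8 genes were called in every comparison, where it called 0% of all genes in 5 of the comparisons, 0.0112% for Atrx with H3.3WT, 0.0113% for both changes against neither and 0.0731% for Atrx over both histones. DESeq2 called Hes1 for both changes against neither and 0 of 8 in each of the other comparisons. The shares of all genes that DESeq2 called there were 0.158% and 0.0598% for the histone with Atrx floxed and intact, 0.593% and 0.408% for Atrx with H3.3G34R and H3.3WT, and 0.501%, 0.0472% and 0.0523% for Atrx, the histone and the interaction over all libraries. Groups without overlap were found for 1 of 8 genes, Hes1, in both changes against neither (2.94% of all genes). In the other 4 pairs 0 of 8 genes had groups without overlap, where 2.16% (histone, Atrx floxed), 2.61% (histone, Atrx intact), 4.64% (Atrx, H3.3G34R) and 2.65% (Atrx, H3.3WT) of all genes had.

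In the fits over all 15 libraries, 8 of 8 genes were positive for Atrx floxed against intact (median 0.25, between 0.03 for Nrarp and 0.54 for Hes1) and 0 were called by limma (0.107% of all genes). Of all genes in that fit 49.7% were positive. Only Hes1 was at an unadjusted p under 0.05, as 5.48% of all genes were. Leaving out the 2 cortex-rich libraries left 6 of 8 positive (median 0.08), with Hes5 at -0.03, Hey2 at 0.05 and Nrarp at -0.22. Leaving out ATRXfl_WT replicate 1 left 5 of 8 positive (median 0.14), with Hey1 at -0.03, Heyl at -0.39 and Nrarp at -0.17. In the same fit 8 of 8 endothelial markers (median 0.55) and 8 of 8 mural markers (median 0.54) were positive and 0 were called. Without ATRXfl_WT replicate 1 the counts were 8 and 6 of 8 (medians 0.16 and 0.28), and the part of vessel RNA in the count of target genes was not tested. For H3.3G34R against H3.3WT, 3 of the 8 target genes were positive (median -0.17) and 0 were called (0%), with Hes1 at an unadjusted p under 0.05 (2.37% of all genes). Without ATRXfl_WT replicate 1, 4 were positive (median 0.10). The interaction was negative for 7 of 8 genes (median -0.45), 0 were called (0%) and Hes7 was at an unadjusted p under 0.05 (2.05%). Without ATRXfl_WT replicate 1 the median interaction was -0.18 and 6 of 8 were negative. Intervals were wide for most genes: for Hes5 the 95% interval of the Atrx difference ran from -0.58 to 1.64, which takes in differences of more than 2-fold.

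**Figure D2:**
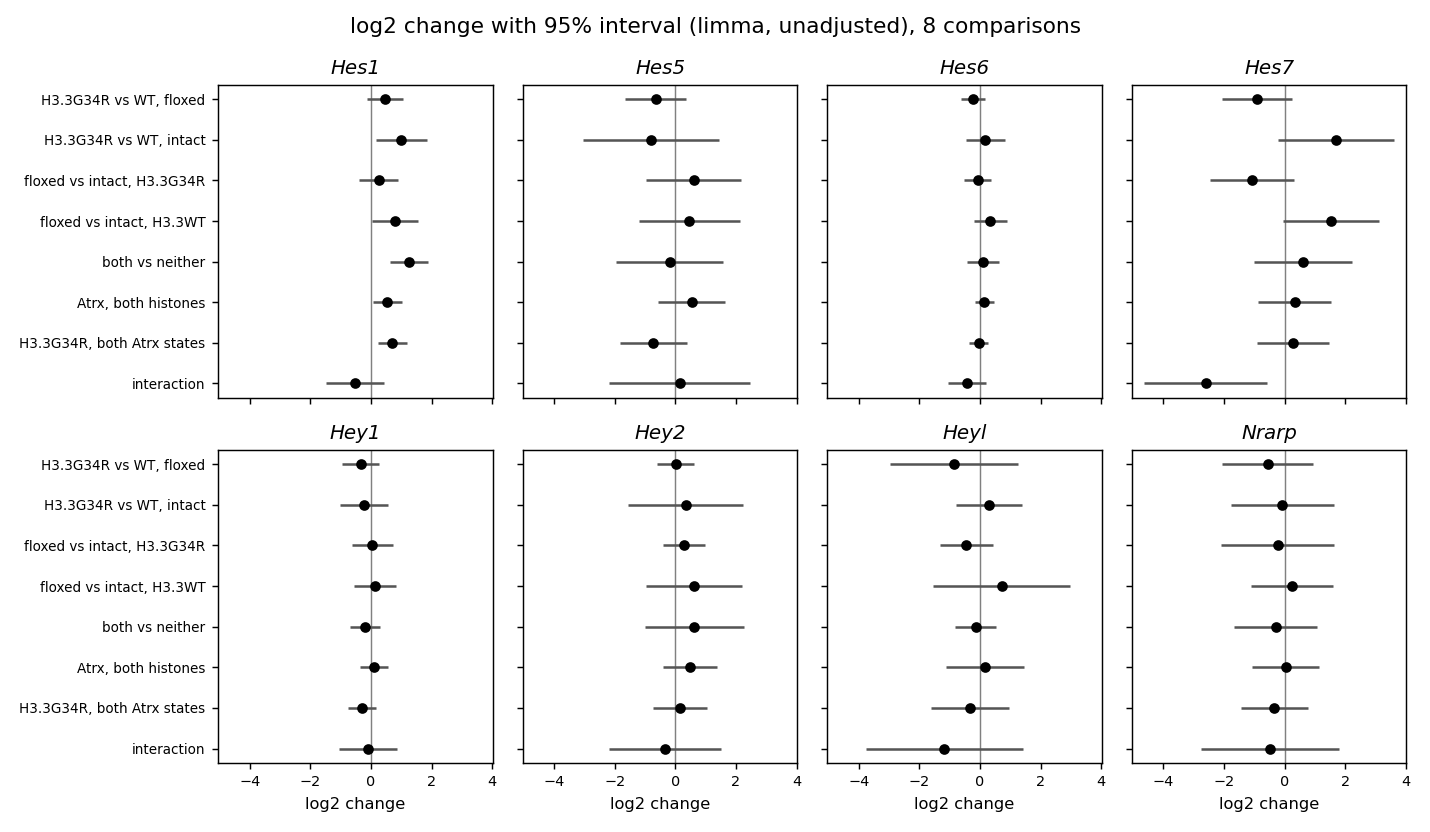
Log2 change of each gene in 8 comparisons, as points, with unadjusted 95% intervals from limma as lines. Intervals of Hes1 lie above 0 in 5 comparisons and that of Hes7 lies below 0 for the interaction, while every other interval crosses 0.

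Upstream in the pathway, 1 gene was called, the ligand gene Dll3. Dll3 acts within the cell and inhibits Notch signalling. It was at 12686, 23594, 17538 and 37315 normalized counts in ATRXfl_G34R and 13392, 21976, 17639.8 and 30544 in ATRXfl_WT, against 2011, 2011 and 1602 in p53_G34R and 2620.3, 2603, 87.2 and 1936 in p53_WT. All 8 floxed libraries were above all 7 intact ones. Over both histones the log2 change was 3.91 (SE 0.60, limma adjusted p = 0.00911), and the adjusted p was between 7.11e-06 and 0.0354 with each of the 15 libraries left out in turn. With H3.3G34R it was 3.49 (SE 0.35, limma adjusted p = 0.0334), a call lost without each of the 7 libraries in turn (adjusted p 0.0666 to 0.262), and with H3.3WT it was 4.26 (SE 1.003, limma adjusted p = 0.9755), where p53_WT replicate 3 was at 87.2 normalized counts and the adjusted p was 0.0249 without it. By edgeR the change over both histones passed (adjusted p = 0.0129), and those with H3.3G34R and with H3.3WT did not (adjusted p = 0.0808 and 0.734). Both changes against neither gave 4.34 (SE 1.03, limma adjusted p = 0.923, edgeR adjusted p = 0.890). That difference was 3.24 without the 2 cortex-rich libraries (limma adjusted p = 0.0987). With each of the 8 libraries left out in turn, 1 limma fit called it (adjusted p = 0.0382). DESeq2 called Dll3 over both histones (adjusted p = 4.05e-11), with H3.3G34R (9.23e-17), with H3.3WT (0.00479) and for both changes against neither (0.00185). By limma none of the 8 target genes was called beside Dll3, and by DESeq2 Hes1 was called for both changes against neither.

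Other Notch pathway genes were counted by role in the same fits, from lists of general knowledge. In each of the 8 comparisons 0 of 4 receptors, 0 of 9 genes of receptor cleavage, 0 of 8 genes of the RBPJ complex and 0 of 15 modifiers such as the Fringe and Deltex genes were called. The same held for 0 of 8 other Notch-responsive genes, among them Sox9, Fabp7 and Nes, and for the 2 of 5 related repressors that were abundant enough to test, Bhlhe40 and Bhlhe41. Of 6 proneural genes that Hes proteins repress, 1 to 4 could be tested in a comparison and 0 were called. The smallest unadjusted p-values among the receptors were 0.0363 for Notch1 (H3.3G34R against H3.3WT with Atrx floxed, log2 -0.59, SE 0.24) and 0.0241 for Notch2 (both changes against neither, -0.995, SE 0.37), neither of which passed limma after adjustment. The medians of the 4 receptors were -0.48 and -0.22 in those comparisons, against 0.00 and -0.01 for all genes. Over the 8 comparisons the receptor medians ran from -0.84, for the interaction, to 0.60, for Atrx with H3.3WT, where 3 of 4 were positive. For Atrx over both histones the receptor median was 0.22, and for the histone over both Atrx states it was -0.43. Receptor medians were not taken with libraries left out. In ATRXfl_WT replicate 1 Notch3 was at 6391 normalized counts, where the next highest library held 1976.

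Levels of the 8 genes were set against 8 lists of cell type markers across the 15 libraries, 64 pairs in all, with permutation p-values adjusted over the 64. By Pearson's r 2 pairs passed, and by Spearman's rho 0 did. Heyl went with mural markers (r = 0.87, permutation p = 0.00115, adjusted p = 0.0470, rho = 0.54, permutation p = 0.0377, adjusted p = 0.514). After each group mean was subtracted r was 0.90 (adjusted p = 0.249). Without the 2 libraries farthest from the median marker level, ATRXfl_WT replicate 1 and p53_WT replicate 4, r was 0.58 (adjusted p = 0.484), so the relation passed the threshold only with those libraries. Hes5 went with oligodendrocyte progenitor markers (r = 0.71, permutation p = 0.00147, adjusted p = 0.0470, rho = 0.59, permutation p = 0.0216, adjusted p = 0.462). Within groups its r was 0.83 (adjusted p = 0.221), and without p53_WT replicates 1 and 3 it was 0.53 (adjusted p = 0.484).

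The next pairs did not pass. Hes6 was lower where neuron markers were higher (r = -0.79, rho = -0.66, adjusted p = 0.103 and 0.462), and r was -0.59 without the 2 cortex-rich libraries. Hey2 had r = 0.80 and rho = 0.26 with progenitor markers, and r = -0.18 without p53_WT replicates 1 and 3. Hey1 had r = 0.69 and rho = 0.37 with endothelial markers, and Heyl r = 0.79 and rho = 0.33. Without ATRXfl_WT replicate 1 and p53_WT replicate 2 these r were 0.28 and 0.39. Hes7 and proliferation markers had r = -0.54, and -0.83 (adjusted p = 0.0352) without the 2 libraries farthest from the median.

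**Figure D3:**
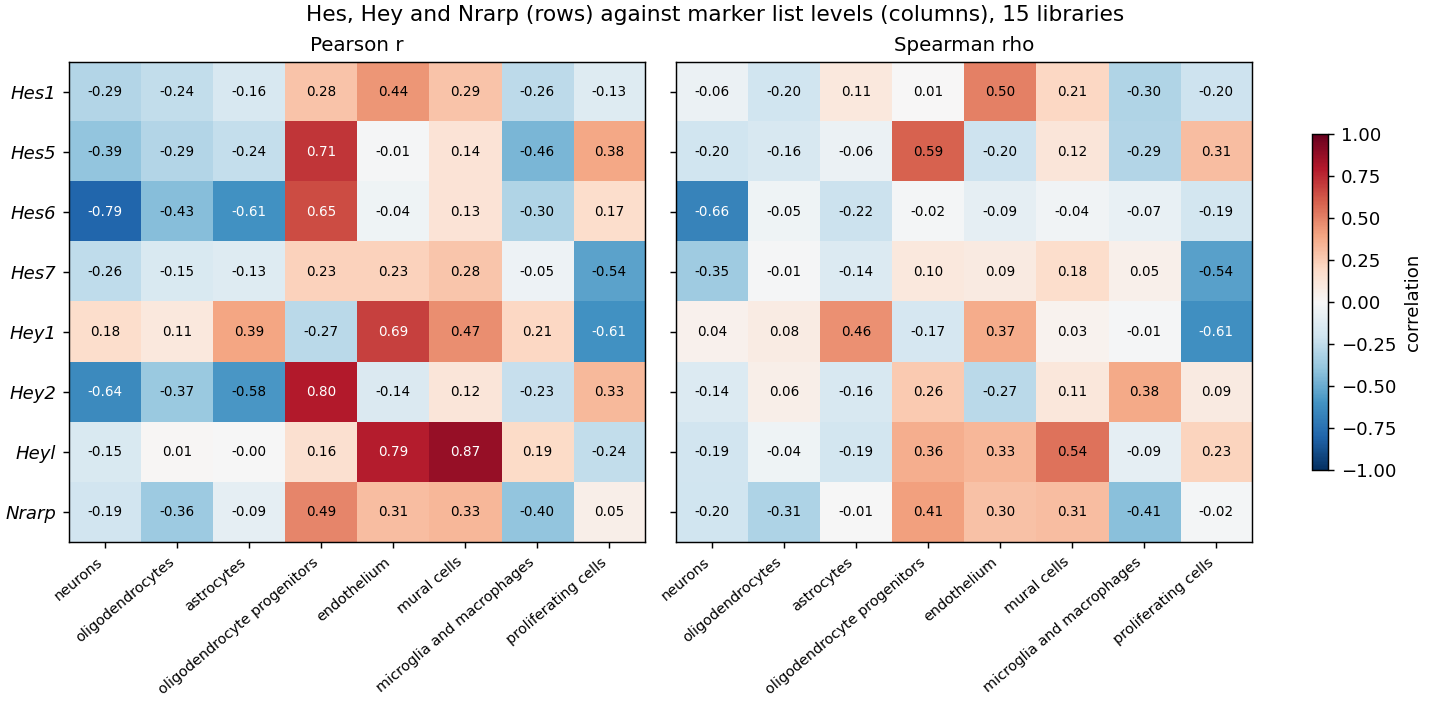
Pearson's r (left) and Spearman's rho (right) of each gene with the level of 8 marker lists, the mean of log2(normalized count + 1) over a list, across 15 libraries. Heyl with mural markers has the highest r, 0.87, and its rho is 0.54, while Hes6 with neuron markers is the lowest of both.

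Among the 28 pairs of the 8 genes themselves, 2 passed by Pearson's r and 0 by Spearman's rho. Hes5 and Nrarp went together (r = 0.78, permutation p = 0.00085, adjusted p = 0.0206, rho = 0.70, permutation p = 0.00421, adjusted p = 0.0589). After group means were subtracted r was 0.81 (adjusted p = 0.0157), and without p53_G34R replicate 1 and p53_WT replicate 3 it was 0.70 (adjusted p = 0.106). The 2 genes were thus low in the same libraries, with Hes5 at 56.1 and Nrarp at 92.5 in p53_G34R replicate 1 and at 153 and 94.0 in ATRXfl_G34R replicate 4. Their upstream windows, printed above, hold 2 and 0 matches to the RBPJ motif. Hes6 and Hey2 also passed (r = 0.81, permutation p = 0.00147, adjusted p = 0.0206, rho = 0.52, permutation p = 0.0504, adjusted p = 0.283). For that pair r was 0.87 (adjusted p = 0.0447) after group means were subtracted and 0.44 (adjusted p = 0.551) without ATRXfl_G34R replicate 1 and p53_WT replicate 3. Hes1 had no pair that passed, and its r with Hes5 was 0.02 (permutation p = 0.948, adjusted p = 0.948).

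**Figure D4:**
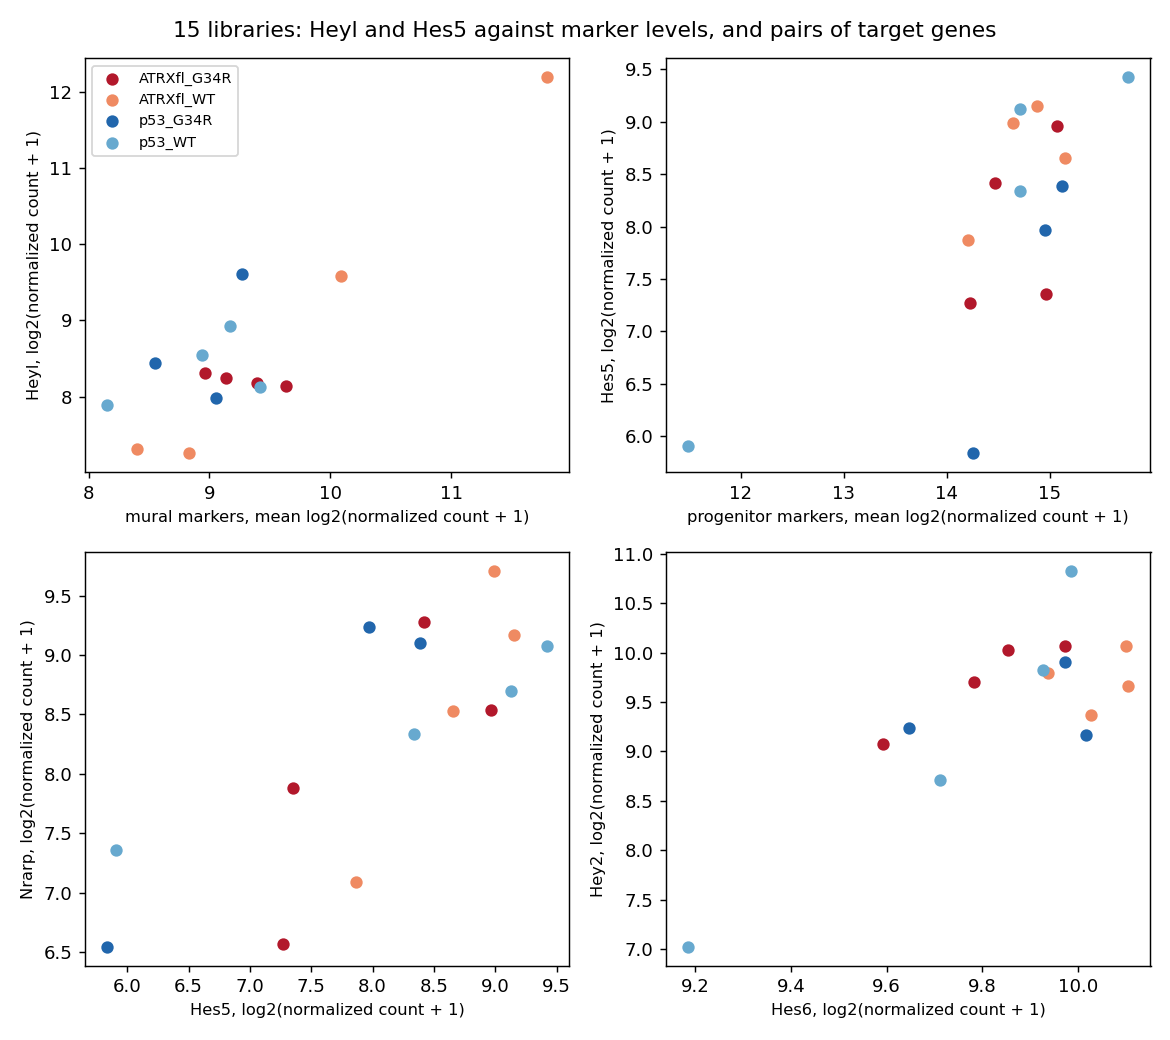
Each point is 1 of 15 libraries, coloured by group, on axes of log2(normalized count + 1) or its mean over a marker list. In the panels of Heyl against mural markers and of Hey2 against Hes6 a single library lies apart, ATRXfl_WT replicate 1 and p53_WT replicate 3. In the panel of Hes5 against progenitor markers p53_WT replicate 3 lies apart at 11.5 on the marker axis, where the next lowest library is at 14.2. Hes5 and Nrarp spread along the whole range.

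Among 15620 genes with a mean of at least 10 normalized counts, those whose log2 level was most like each target gene over the 15 libraries were named by Pearson's r, as a description. Among those nearest to Hes1 were Lyplal1 (0.84) and Zbtb1 (0.80). Nearest to Hes5 were Evc (0.91), a gene of the primary cilium, 1110015O18Rik (0.87) and Prtg (0.87). For Nrarp they were D030034A15Rik (0.91), Slc38a3 (0.88), a glutamine transporter, and Slc16a13 (0.88). Hes6 was nearest to Tgds (0.94), Cnpy1 (0.88) and Rab34 (0.87), and Hes7 to Ufl1 (0.85), Ackr3 (0.84) and Rarg (0.82). Hey1 was nearest to Tbx1 (0.88), Gne (0.84) and Ptgis (0.84), and Hey2 to Chst5 (0.92), Maged2 (0.91) and Gjc3 (0.91), a connexin of glia. Heyl was nearest to Tmem204 (0.95), Col7a1 (0.91) and Kdr (0.90), the endothelial VEGF receptor, which is also in the endothelial list. By rank some were weaker: Spearman's rho was 0.52 for Heyl and Kdr, 0.61 for Heyl and Col7a1 and 0.625 for Hes1 and Zbtb1. For Hes1 and Lyplal1 it was 0.86, against an r of 0.84.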

How the data were processed

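RNA of the 15 tumour libraries was extracted with a Qiagen RNeasy kit and prepared with TruSeq mRNA chemistry, per the labels' protocols. The submitters' processing notes name STAR 2.7, HTSeq and DESeq2 with the mm10 build. Not given in the sources used here: strand setting, annotation, and HTSeq and DESeq2 versions.

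The authors deposited 5 tables of 54232 genes, 1 for each pair of groups, with a normalized signal per library (reads divided by a size factor within that table), and with their own log2 changes, p-values and test statistics (a score), per the file headers. Dividing each value by what 1 read is worth gave whole numbers throughout (100%, within 0.01), so reads were recovered, and the 23 repeat columns of a library in other tables held the same reads. Identifiers matched GENCODE vM21 for 54165 genes (99.9%), which gave positions and exon lengths.

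The 8 genes and all lists were chosen with earlier results of these data known. The main test was limma 3.58.1 (trend, robust) in R 4.3.3 on log2(value + 1) over the genes whose mean in the fit reached 10, with Benjamini-Hochberg adjustment over all genes and a threshold of 0.05, so changes of low genes are understated. The 5 pairs were fitted each on its own table. The Atrx difference, the histone difference and their interaction were fitted on all 15 libraries, scaled together by medians of ratios, which is also the scale of the levels. Alternatives were pseudocounts of 0.5 and 5, no filter, edgeR 4.0.16 with TMM and DESeq2 1.42.0 on recovered reads, all 4 groups in 1 fit, libraries of a shared title code summed, each library left out, and both cortex-rich libraries left out. A covariate of log2 Xist and the correlations among the 8 genes were added after the data were seen. Correlations used 100000 permutations (numpy 2.4.6). Genes named beside the 8 were, by rule, the 3 nearest by Pearson's r (without predicted genes, pseudogenes or mitochondrial genes) and up to 3 per list by smallest p, of which 2 are not reported here. Rgs5 and Pecam1 were named after their values were seen. The scripts were tested on simulated data. Depth was 22807315 to 35679129 reads per library, and counting error was largest for Hes7.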

Additional observations from a re-analysis of the deposited data

Results flagged for a closer look

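In 24 groups of 4 libraries (8 genes in 3 groups, p53_G34R having too few), the highest or lowest library was set against Dixon's 95% critical value for its gap to the nearest library over the range of the group. Chance gives this in about 1 in 20 groups, and 2 were found. Heyl in ATRXfl_WT replicate 1 was at 4681 normalized counts, and the nearest library of the group was at 764. That library also had the highest endothelial and mural marker sums, 80720 and 105767, and the part of these in the Heyl value was not tested. Hey1 in ATRXfl_G34R replicate 1 was at 1339.9 normalized counts, and the nearest was at 1053. All 4 libraries of that Hey1 group lay within the range of ATRXfl_WT and p53_WT together.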

How the results depend on the processing

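No paired analysis was possible because the labels carry no replicate numbers that link libraries of different groups. Leaving out each library in turn gave 664 values of the 8 genes, of which 0 were called and 56 changed sign. Of these values, 10 moved by at least the SE of the log2 difference in the main limma fit. The other settings gave 520 values, of which 1 was called, 15 moved by at least that SE and 25 changed sign. The number of genes called for both changes against neither was 0 in limma and 1 with DESeq2 on recovered reads (Hes1, adjusted p = 0.0448, where the range over all alternatives was 0.0448 to 0.99999). The cause of that difference was not tested. Of the gene and marker list pairs, 2 passed over 15 libraries, 0 after group means were subtracted, 1 without the 2 libraries farthest from the median and 0 with the list level as log2 of the summed value. Of the pairs among the 8 genes, 2 passed over 15 libraries, 2 after group means were subtracted and 0 without the 2 farthest libraries. Pseudocounts, the filter, edgeR, summing by title code, 1 fit of all 4 groups and the Xist covariate left the count of called genes at 0 in every comparison in which they were run. Heyl moved with the tool and with ATRXfl_WT replicate 1, as given above, and Hes5 with the cortex-rich libraries. Hes7, with 4 to 88 reads per library, was limited by depth.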
